A study of Homo sapiens with 6 samples.

Results

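The 8 genes described here encode the chaperones, targeting factor and receptor that place tail-anchored proteins in the membrane of the endoplasmic reticulum (ER): SGTA, SGTB, BAG6, UBL4A, GET4, GET3 (also called ASNA1 or TRC40), GET1 (also called WRB) and CAMLG. They were found by symbol among the 30618 genes of the count table, and all 8 were among the 16749 genes that passed the filter on low counts. The genes were chosen from earlier results of these data in which SGTA was lower after EIF1 knockdown, so their difference between the groups is given as a description, with no test.

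RNA-seq was performed on ARPE-19 cells, an established human retinal pigment epithelial line, in 50 mM glucose. The 3 NC libraries came from cells transfected with a negative control siRNA, and the 3 siEIF1 libraries from cells transfected with an siRNA against EIF1, a translation initiation factor that takes part in start codon selection. Both groups carried the high glucose, and no library in normal glucose or with an osmotic control was analysed here. The libraries of a group are described as biological replicates of this single line, with 1 siRNA sequence for EIF1, so what follows describes that siRNA in these cells.

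A tail-anchored protein has a single membrane-spanning segment at its C-terminus, which leaves the ribosome only after translation has ended. SGTA captures this segment and passes it, on a complex of BAG6, UBL4A and GET4, to the ATPase GET3, which carries the protein to the GET1 and CAMLG receptor in the ER membrane. SGTA and BAG6 also sort proteins that fail to reach a membrane, between another attempt at targeting and ubiquitin-dependent degradation.

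The libraries held 26499929 to 31431479 counts, with 9.23 to 9.98% from mitochondrial genes. EIF1 read 294.35, 281.08 and 281.28 FPKM (fragments normalised to gene length and library size, as deposited) in NC replicates 1, 2 and 3 and 24.28, 22.68 and 23.5 in siEIF1. The siEIF1 mean was 8.22% of the NC mean, a log2 fold change of -3.58 (SE 0.055, adjusted p = 1.08e-13, edgeR quasi-likelihood F-test, Benjamini-Hochberg over all genes). GAPDH, a glycolytic enzyme often used as a reference gene, was higher in siEIF1, at 1660 ± 58.7 against 1360 ± 19.3 FPKM (SD, n = 3; log2 fold change 0.30, SE 0.055, edgeR adjusted p = 0.00169). On EIF1 alone the exact two-sided permutation test gave p = 0.1, the smallest that 3 against 3 libraries allow. Of 14 markers of retinal pigment epithelium, KRT8 (113 FPKM in NC and 131 in siEIF1, edgeR adjusted p = 0.0095), KRT18 (326 and 382 FPKM, adjusted p = 0.00442), OTX2 (17.8 FPKM in NC) and MITF (5.84 FPKM in NC) were present. The mature markers were low or near 0 in NC, with SERPINF1 at 1.7, PMEL at 0.27, RLBP1 at 0.237, LRAT at 0.12, TYRP1 at 0.0633, CDH3 at 0.0167 and TYR at 0.00667 FPKM. BEST1 read 66 FPKM in NC but shares 1267 exon bases with FTH1, so its value is uncertain. RPE65 and TTR were not found by symbol among the genes counted. RLBP1, at 0.68 FPKM in siEIF1, was the only marker called past the fold limit (log2 fold change 1.55, edgeR adjusted p = 0.00102).

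Over all genes tested, 20.6% were called at an adjusted p under 0.05, 10.2% higher and 10.4% lower in siEIF1, 1.71% were also past a fold of 2 or 0.5, and 37.1% had groups that did not overlap in CPM (counts scaled to library size, by the TMM method of edgeR). Against these shares, 1 of the 8 genes was called higher (CAMLG), 2 lower (SGTA and SGTB) and 5 neither, 0 passed the fold limit, and 4 had groups that did not overlap. The genes were selected on this same contrast, so nothing is read from these counts. The median log2 fold change of the 8 genes was 0.018, beside 0.0033 for all genes tested.

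A 7-base match to the siRNA was found in SGTA and in none of the other 7 genes, where only canonical transcripts were searched. This match lies near the end of the SGTA transcript. SGTA (ENSG00000104969.11) lies on the reverse strand of chromosome 19, from 2754715 to 2783362 on GRCh38, and its canonical transcript in GENCODE release 44 has 12 exons and 2231 bases, 1225 of them in the 3' UTR. The first line shows the stretch of EIF1 that siEIF1 is made to match, at chr17:41689917-41689935 on the forward strand, in the coding sequence of exon 2 of 4. The second line shows the stretch of SGTA at chr19:2754722-2754740 on the reverse strand, in the 3' UTR part of exon 12 of 12. Capitals mark the 7 bases AGGCGTT that pair with bases 2 to 8 (the seed) of the siRNA strand complementary to EIF1.
EIF1: gaaactagtgaAGGCGTTt
SGTA: ggggaataaatAGGCGTTg
The 2 stretches shared 8 of 19 bases, 7 of them in the capitals and 1 among the 12 others. The seed match in SGTA starts at base 1211 of its 1225-base 3' UTR and lies 1 base after AATAAA, the letters of the canonical polyadenylation signal.

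None of the 8 transcripts apart from SGTA held this match, in the 3' UTR or elsewhere, and none of the 8 held the match CTAGTTT of the other siRNA strand. Among 13252 tested genes with an annotated 3' UTR, 295 (2.23%) held the match AGGCGTT there, counting the repeated entries of CD99 and GTPBP6. Of these, 26.8% were called lower and 6.1% higher in siEIF1 by edgeR, with a median log2 fold change of -0.08. Of the 12957 genes without it, 12.1% were called lower and 12.2% higher, with a median of 0.00. Their 3' UTRs were shorter, at a median of 1302 bases against 3344 bases in the genes with the match. The 1856 genes with the match CTAGTTT had a median 3' UTR of 3441 bases, and 14.9% of them were called lower and 11.3% higher. SGTA was number 6 from the lowest log2 fold change of the 295 genes. A log2 fold change of -0.95 or lower was found in 2.03% of the genes with the match AGGCGTT and 1.74% of those without. At -1.0 or lower the shares were 1.02% and 1.57%. These 2 cuts rest on few genes with the match, since the last at -1.0 or lower was number 3, NFATC2 (-1.18). At -0.6 or lower the shares were 7.46% and 3.67%, and at -0.4 or lower 16.95% and 6.7%. A seed match is a description of the letters, and its part in the level of SGTA was not tested.

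**Figure D1:**
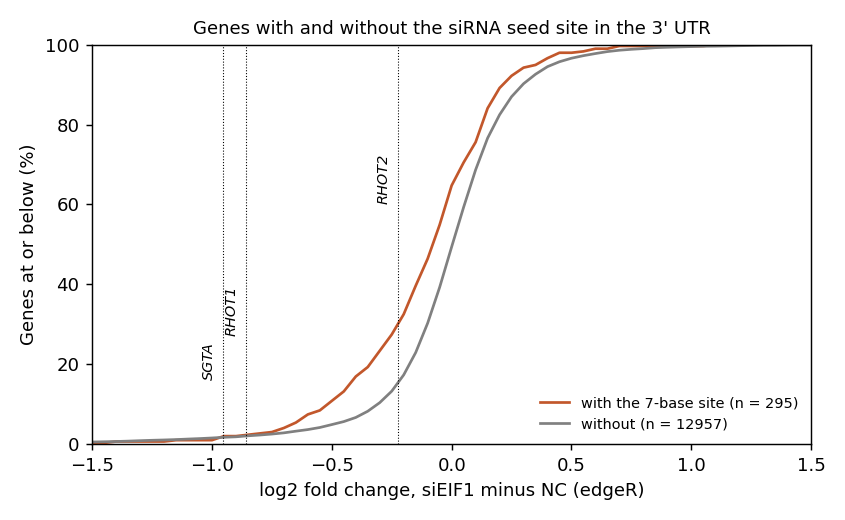
Cumulative share of genes (vertical axis, %) at or below each log2 fold change of siEIF1 minus NC (horizontal axis, edgeR), for the 295 genes with the seed match in the 3' UTR and the 12957 without. Dotted lines mark SGTA at -0.95, RHOT1 at -0.86 and RHOT2 at -0.22, which hold the match. The curve of the genes with the match lies to the left over most of its length, with medians of -0.08 and 0.00. At -0.95 the curves were close, at 2.03% with the match and 1.74% without. At -1.0, where few genes with the match remain, they had the lower share, at 1.02% against 1.57%. At -0.4 they had the higher share, at 16.95% against 6.7%.

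SGTA, the co-chaperone that receives tail-anchored proteins first, read 90.3, 87.3 and 86.3 CPM in the NC libraries and 46.2, 45.3 and 44.8 in the siEIF1 libraries. Every siEIF1 library lay well under every NC library, and the spread within a group was small, at SDs of 2.04 and 0.676 CPM (n = 3 each). The log2 fold change was -0.95 (SE 0.048), which is a level 0.517 times that of NC. In raw counts, SGTA had 2398, 2486 and 2441 reads in NC and 1435, 1318 and 1339 reads in siEIF1. Counts from whole cultures do not separate fewer cells that express a gene from less RNA per cell, here and for every gene below. Ranked by log2 fold change, SGTA was number 261 from the lowest of the 16749 genes, and 240 of the 1744 genes called lower had a lower value.

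SGTB (ENSG00000197860.10), the paralog of SGTA, spans bases 65665928 to 65723035 of chromosome 5 on the reverse strand, with 11 exons and a 3' UTR of 4318 bases, the longest of the 8. It read 31.5, 27.8 and 29.6 CPM in NC and 17.3, 16.6 and 21.4 CPM in siEIF1. The groups did not overlap, and siEIF1 replicate 3 stood above the other siEIF1 libraries. The log2 fold change was -0.69 (SE 0.091), with group means of 29.6 ± 1.89 and 18.4 ± 2.57 CPM (SD, n = 3). Without siEIF1 replicate 3 it was -0.80. In the annotation SGTB shares 306 exon bases with TRAPPC13 on the opposite strand, which had 494 to 557 counts. The paper describes strand-specific libraries, but the strand setting of the counting is not given in the sources used here.

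Promoter sequences from RefSeq (GRCh38.p14) were found for 7 of the 8 genes, and those of SGTA, SGTB and CAMLG are shown because these are the genes with the largest differences. Each runs from 250 bases before the RefSeq start to 50 after it, 5′ to 3′ on the strand of the gene, and capitals mark the GC box GGGCGG on either strand (CCGCCC on the reverse). The windows lie at chr19:2783224-2783523 (reverse strand), chr5:65722060-65722359 (reverse strand) and chr5:134738298-134738597 (forward strand).
SGTA promoter: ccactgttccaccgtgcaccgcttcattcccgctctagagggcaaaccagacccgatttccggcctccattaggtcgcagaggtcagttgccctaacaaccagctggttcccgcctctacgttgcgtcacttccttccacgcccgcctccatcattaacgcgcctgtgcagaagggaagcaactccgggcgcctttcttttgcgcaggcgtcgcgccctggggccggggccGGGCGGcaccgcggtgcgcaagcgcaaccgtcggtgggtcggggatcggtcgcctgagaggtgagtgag
SGTB promoter: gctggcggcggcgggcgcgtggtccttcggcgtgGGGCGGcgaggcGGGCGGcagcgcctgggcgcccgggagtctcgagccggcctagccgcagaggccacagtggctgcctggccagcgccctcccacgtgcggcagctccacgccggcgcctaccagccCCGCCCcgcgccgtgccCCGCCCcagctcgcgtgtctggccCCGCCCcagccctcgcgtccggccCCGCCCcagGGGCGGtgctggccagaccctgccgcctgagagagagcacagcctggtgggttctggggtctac
CAMLG promoter: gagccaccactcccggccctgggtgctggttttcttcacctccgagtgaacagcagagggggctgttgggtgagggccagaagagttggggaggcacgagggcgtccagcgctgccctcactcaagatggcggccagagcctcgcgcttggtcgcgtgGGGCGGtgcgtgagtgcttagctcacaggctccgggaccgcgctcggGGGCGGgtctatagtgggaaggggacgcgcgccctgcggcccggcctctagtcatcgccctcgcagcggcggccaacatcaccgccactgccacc
The SGTA window held 1 GC box, the SGTB window 7 and the CAMLG window 2, and 45.0% of the 35116 RefSeq windows held at least 1. All 3 were rich in CpG, with 31, 37 and 27 CpG dinucleotides against a median of 14, and in GC, at 65.0%, 79.3% and 69.3% against a median of 58.7%. Both strands were also searched for CCAAT (in 34.6% of all windows), TTTGGCGC (0.652%), TTTCCCGC (1.63%), TTTGAA (15.2%), CCGGAAG (10.3%), TGACGTCA (1.85%) and TGATGNAAN (3.61%), and none of these letters occurred in the 3 windows. CACGTG, in 7.26% of all windows, occurred once in that of SGTB. These matches describe the letters only.

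BAG6 (ENSG00000204463.13), the scaffold that receives clients from SGTA, spans bases 31639028 to 31652705 of chromosome 6 on the reverse strand, with 26 exons. It read 212, 224 and 225 CPM in NC and 226, 232 and 235 CPM in siEIF1. All siEIF1 values were above all NC values, though the nearest libraries of the groups differed by less than the SD within a group, and the log2 fold change was 0.07 (SE 0.046). UBL4A (ENSG00000102178.13), the ubiquitin-like subunit through which SGTA docks on the complex, spans bases 154483717 to 154486615 of chromosome X on the reverse strand. It read 49.3, 52.1 and 49 CPM in NC and 46, 49.1 and 44.2 CPM in siEIF1. The groups overlapped in CPM, with a log2 fold change of -0.11 (SE 0.057). In FPKM the groups of UBL4A did not overlap, at 15.66 to 16.43 in NC and 14.19 to 15.05 in siEIF1. Those of BAG6 did overlap in FPKM, at 27.45 to 29.52 in NC and 28.94 to 30.74 in siEIF1. In the annotation BAG6 shares 136 exon bases with APOM on the opposite strand, which had 75 to 100 counts.

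GET4 (ENSG00000239857.7), the subunit that links the BAG6 complex to GET3, spans bases 876554 to 896436 of chromosome 7 on the forward strand. It had the fewest counts of the 8 genes, 185 to 285 in a library, and read 6.96, 8.75 and 6.83 CPM in NC and 7.3, 8.53 and 9.54 CPM in siEIF1. The groups overlapped, and its log2 fold change of 0.17 had the widest standard error of the 8, at 0.127. GET4 shares 1842 exon bases with SUN1 on the same strand, a gene with 3352 to 4274 counts, and 2592 exon bases with a long non-coding RNA on the opposite strand. Its counts are therefore uncertain.

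GET3 (ENSG00000198356.12), the ATPase that ferries the client, spans bases 12737139 to 12748323 of chromosome 19 on the forward strand. It read 98, 97.1 and 99.4 CPM in NC and 99.9, 105 and 97.8 CPM in siEIF1. The groups overlapped, with a log2 fold change of 0.04 (SE 0.048).

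Of the receptor pair, GET1 (ENSG00000182093.16) spans bases 39377698 to 39428528 of chromosome 21 on the forward strand. It read 35.2, 34.9 and 35.8 CPM in NC and 35.7, 35.1 and 34.8 CPM in siEIF1. The libraries were all within about 1 CPM of each other, with a log2 fold change of -0.004 (SE 0.054). GET1 shares 990 exon bases with LCA5L on the opposite strand, which had 44 to 57 counts. It also shares 1188 exon bases with the readthrough gene GET1-SH3BGR on the same strand, which had 88 to 141 counts. Part of the reads of GET1 could therefore have been assigned elsewhere. CAMLG (ENSG00000164615.6), its partner in the receptor, spans bases 134738495 to 134752157 of chromosome 5 on the forward strand, with 4 exons. CAMLG read 63.6, 64.9 and 57.7 CPM in NC and 87.2, 87.9 and 77.4 CPM in siEIF1. Every siEIF1 library was above every NC library, with group means of 62.1 ± 3.81 and 84.1 ± 5.88 CPM (SD, n = 3). The log2 fold change was 0.44 (SE 0.063), or 1.36 times the NC level. Replicate 3 was the lowest library of both groups for this gene.

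**Figure D2:**
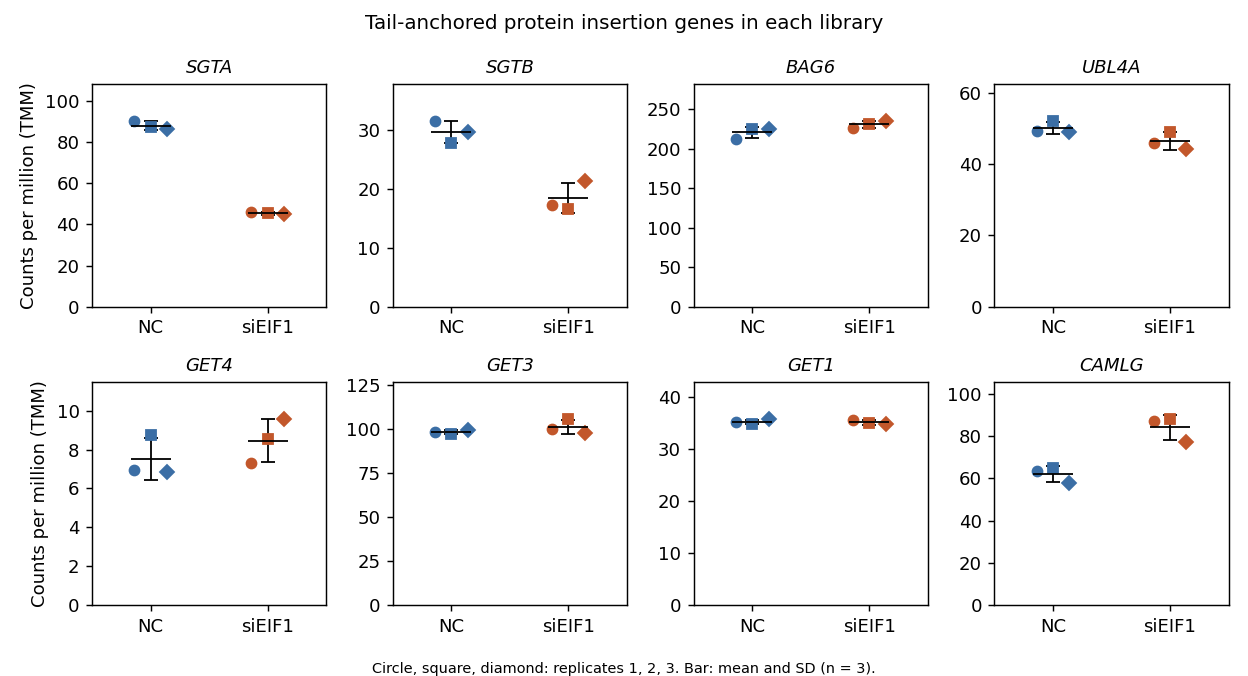
CPM (TMM-scaled counts, vertical axes from 0) of the 8 genes in each NC and siEIF1 library, with circles, squares and diamonds for replicates 1, 2 and 3 and bars for the mean and SD (n = 3). SGTA separated into 86.3 to 90.3 and 44.8 to 46.2 CPM and CAMLG into 57.7 to 64.9 and 77.4 to 87.9 CPM, while the libraries of UBL4A, GET4, GET3 and GET1 overlapped.

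The relative read counts of the pathway within a library differed accordingly. For each read of BAG6 there were 0.425, 0.389 and 0.384 reads of SGTA in the NC libraries and 0.204, 0.196 and 0.191 in siEIF1. For each read of GET3 the mean number of SGTA reads went from 0.896 ± 0.027 to 0.45 ± 0.017 (SD, n = 3). These are ratios of read counts of unequal transcripts and not of molecules, and they do not depend on the scaling between libraries. SGTA was also lower relative to SGTB, with 2.86, 3.15 and 2.92 reads of SGTA for each read of SGTB in NC and 2.66, 2.73 and 2.1 in siEIF1. The CAMLG to GET1 ratio had means of 1.76 ± 0.13 and 2.39 ± 0.15, with no overlap between the groups. The UBL4A to BAG6 ratio was 0.218 to 0.232 in NC and 0.188 to 0.212 in siEIF1.

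**Figure D3:**
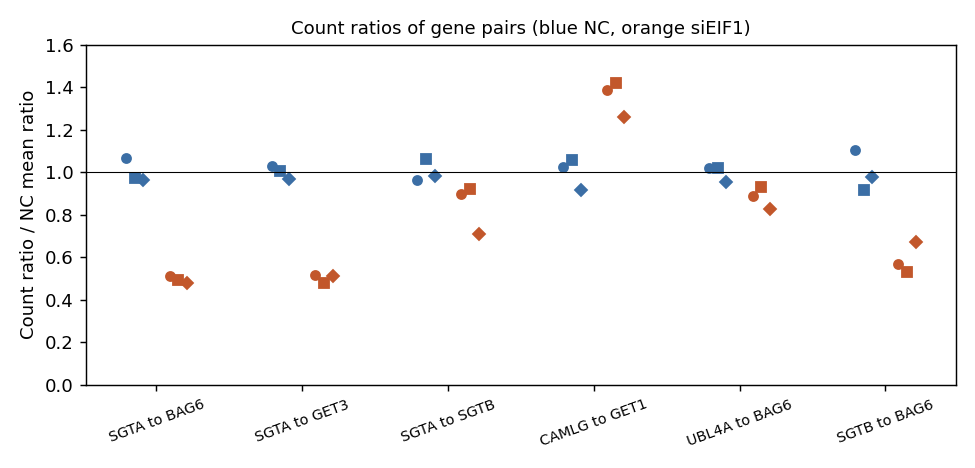
Ratio of read counts of gene pairs in each library, divided by the NC mean of the pair (vertical axis), with NC in blue, siEIF1 in orange and circles, squares and diamonds for replicates 1, 2 and 3. The SGTA to BAG6 ratio, 0.399 in NC, was 0.197 in siEIF1, and the CAMLG to GET1 ratio moved the other way.

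In levels per length, GET3 was the highest of the 8 genes in NC at 55.5 ± 1.3 FPKM (SD, n = 3), followed by BAG6 at 28.6 ± 1.05 FPKM and UBL4A at 16 ± 0.408 FPKM. SGTA stood at 8.74 ± 0.176 FPKM, CAMLG at 6.86 ± 0.344, SGTB at 4.24 ± 0.288, GET1 at 3.35 ± 0.0819 and GET4 at 1.14 ± 0.153 FPKM. No neighbours in this order overlapped among the NC libraries. In siEIF1, SGTA stood at 4.45 ± 0.1 FPKM and CAMLG at 9.17 ± 0.48 FPKM, so that CAMLG was above SGTA.

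The order depended on the length used. The length implied by the deposited FPKM was taken with the total of gene counts as library size. It was 1.23 times the union of all annotated exons for each of the 8 genes, but 1.29 to 6.91 times the canonical transcript. A larger library total would lower all these values by the same factor. With CPM per kilobase of canonical transcript, the NC order was GET3 (77), BAG6 (57.4), SGTA (39.4), CAMLG (28.6), GET1 (23), UBL4A (21.6), SGTB (5.44) and GET4 (3.59). SGTA was 2.07 ± 0.11 times as high as SGTB in FPKM and 7.26 ± 0.37 times as high on the canonical transcripts. GET3 and BAG6 led and GET4 was last on both scales.

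**Figure D4:**
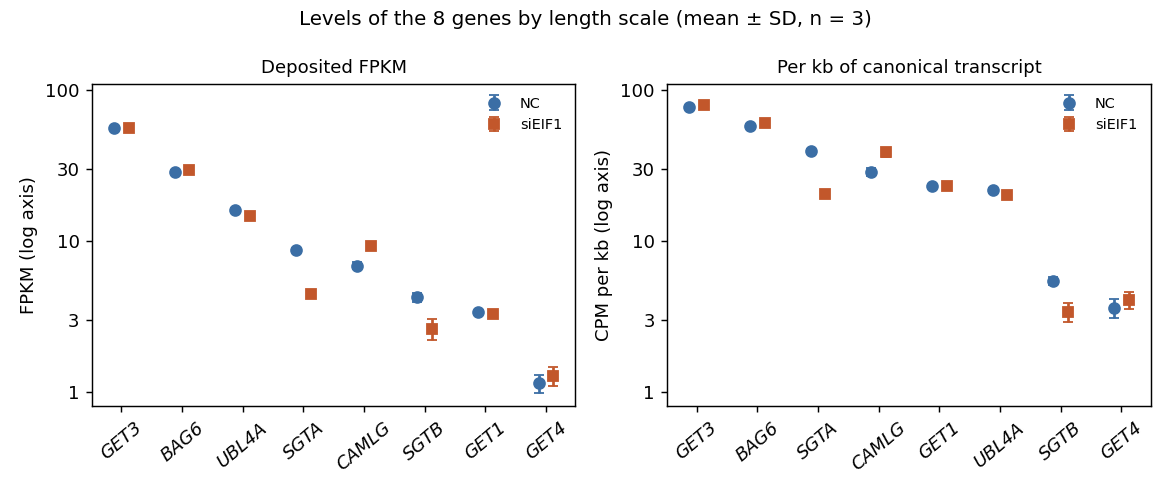
Levels of the 8 genes in NC (blue circles) and siEIF1 (orange squares) as deposited FPKM and as CPM per kilobase of canonical transcript (log axes, mean and SD, n = 3), each ordered by the NC level. UBL4A was the third highest in FPKM, at 16, and the sixth by canonical transcript, at 21.6 CPM per kilobase.

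Genes with a pattern over the 6 libraries most like that of SGTA were sought among 13382 genes with a mean count of at least 50, by the root mean square difference of log2 CPM centred on each gene's mean. The 5 closest were H3-3B, a gene for histone H3.3 (difference 0.0377, log2 fold change -1.02), CHAF1A, a subunit of chromatin assembly factor 1 (0.0456, -0.98), CLOCK, a circadian transcription factor (0.0518, -0.99), LMNB1, which encodes lamin B1 (0.0551, -0.97), and MCM5, a subunit of the replicative helicase (0.0579, -1.03). Of these 5 genes, 1 (CLOCK) held the seed match in its 3' UTR. SGTB was number 170 in this order (0.183), and the other 6 genes of the pathway lay between number 3366 (UBL4A) and number 12870 (CAMLG). The spread of SGTA within a group was small, so this order largely restates the log2 fold change between the groups. Shared regulation was not tested.

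Related genes were taken from 7 hand-written lists that hold none of the 8 genes and that were written with earlier results of these data known. Of their 111 genes tested, 25 (22.5%) were called, 5 higher and 20 lower, beside 20.6% of all genes (10.2% higher and 10.4% lower), and their median log2 fold change was -0.01. None of the 111 genes passed the fold limit. The count of called genes was 14 without NC replicate 1, 11 without NC replicate 3 and 16 without siEIF1 replicate 2. All adjusted p in the account of these lists are from edgeR's quasi-likelihood test, adjusted over all genes tested by Benjamini-Hochberg.

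Of 10 subunits of the ER membrane protein complex (EMC), which inserts other tail-anchored proteins, 1 rose and 1 fell. EMC6 read 20.68, 19.88 and 21.57 FPKM in NC and 26.72, 27.37 and 23.54 in siEIF1 (log2 fold change 0.34, adjusted p = 0.00717). EMC8 read 7.54, 6.97 and 7.76 FPKM in NC and 5.97, 5.83 and 6.53 in siEIF1 (-0.26, adjusted p = 0.00834). The groups of both genes were apart, and the list's median was 0.01. Of 8 genes of the signal recognition particle and its receptor, which target proteins during translation, SRPRA, the receptor's alpha subunit, fell (log2 fold change -0.30, adjusted p = 0.00126), and the other 7 were not called. Of 7 other insertion and extraction factors, TMCO1, an ER membrane protein of the insertase family of GET1 (-0.30, adjusted p = 0.00103), and TMEM208, a factor of an alternative targeting route (-0.24, adjusted p = 0.0295), fell. None of PEX3, PEX16, PEX19, ATAD1 and ATP13A1 was called. The call of TMEM208 was lost on leaving out any of the NC libraries or siEIF1 replicate 3, with adjusted p of 0.0623 to 0.0911 in edgeR, and without NC replicate 3 the signal recognition particle list had 2 called genes.

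Of 11 quality control partners of BAG6 and SGTA, 2 fell and none rose. They were UBQLN1, a ubiquilin that binds membrane segments in the cytosol (log2 fold change -0.17, adjusted p = 0.0184), and RNF126, the ubiquitin ligase that works with BAG6 (-0.17, adjusted p = 0.0468). Neither was called without NC replicate 1 or without siEIF1 replicate 2, and RNF126 was called in none of the fits that left out 1 library. Of 19 genes of the HSP70 and HSP90 system, with which the repeats of SGTA interact, 1 rose and 5 fell. BAG1, a nucleotide exchange factor of HSP70, rose (0.20, adjusted p = 0.0088). HSPH1, a chaperone of the HSP110 family, fell the most (-0.33, adjusted p = 0.00561), followed by BAG2 (-0.22, adjusted p = 0.0255), STIP1, which joins HSP70 to HSP90 (-0.18, adjusted p = 0.0193), PPP5C (-0.18, adjusted p = 0.0156) and DNAJA1 (-0.17, adjusted p = 0.0367), the last named after its value was seen. The count of called genes on this list was 1 without NC replicate 3 and 3 without NC replicate 1 or without siEIF1 replicate 2, and HSPH1 was called in every fit.

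The clients themselves were measured as transcripts only. Of 38 genes for tail-anchored proteins of the ER and the secretory route, 1 rose and 5 fell, with a median log2 fold change of 0.00. The rise was in STX12, an endosomal syntaxin, with 5.12, 4.57 and 4.82 FPKM in NC and 8.79, 8.27 and 8.71 FPKM in siEIF1. The groups were far apart for their spread, with a log2 fold change of 0.85 (SE 0.061, adjusted p = 1.14e-06). BNIP1 (-0.31, adjusted p = 0.0146), HMOX1, heme oxygenase 1 (-0.26, adjusted p = 0.0279), SEC22B (-0.25, adjusted p = 0.00598), VAPB (-0.18, adjusted p = 0.0185) and UBE2J2 (-0.17, adjusted p = 0.0181) fell, of which HMOX1 was named after its value was seen. The other 32, among them SEC61B, whose protein is widely used as a client of GET3, and all vesicle-associated membrane proteins (VAMP) of the list, were not called. VAMP7 and VAMP8 had few reads, at mean counts of 18.5 and 18.8, and wide SEs of 0.302 and 0.396. VAMP7 is listed on both sex chromosomes and only uniquely mapped reads were counted, so its level is uncertain. Without NC replicate 3 the list had 2 called genes, with BNIP1, VAPB and UBE2J2 among the calls lost. VAPB also lost its call without NC replicate 1, siEIF1 replicate 1 or siEIF1 replicate 2, while STX12 and SEC22B were called in every fit.

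Of 18 tested genes for tail-anchored proteins of mitochondria and peroxisomes, 2 rose and 4 fell, with a median log2 fold change of -0.02. RHOT1, the mitochondrial GTPase Miro1, read 5.01, 4.98 and 4.67 FPKM in NC and 2.78, 2.52 and 2.67 FPKM in siEIF1. The siEIF1 libraries lay well below, with a log2 fold change of -0.86 (SE 0.064, adjusted p = 1.32e-06). Its paralog RHOT2 fell by less (-0.22, adjusted p = 0.00823), as did CYB5B (-0.20, adjusted p = 0.0145) and MCL1, an inhibitor of apoptosis (-0.18, adjusted p = 0.0342). TOMM22, a receptor for mitochondrial import (0.22, adjusted p = 0.00784), and FIS1 (0.16, adjusted p = 0.0268) rose. The list had 2 called genes without NC replicate 3, where RHOT2 and TOMM22 lost their calls, and 3 without NC replicate 1. MCL1 and FIS1 were called in none of the fits without 1 of the NC libraries, siEIF1 replicate 1 or siEIF1 replicate 2, and CYB5B was not called without NC replicate 1 or siEIF1 replicate 1. RHOT1 was called in every fit. The seed match shown above for SGTA was present in the 3' UTR of 4 of the 111 related genes, namely RHOT1, RHOT2, EMC10 (log2 fold change 0.08, not called) and VTI1B (0.06, not called), and its part in these values was not tested.

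**Figure D5:**
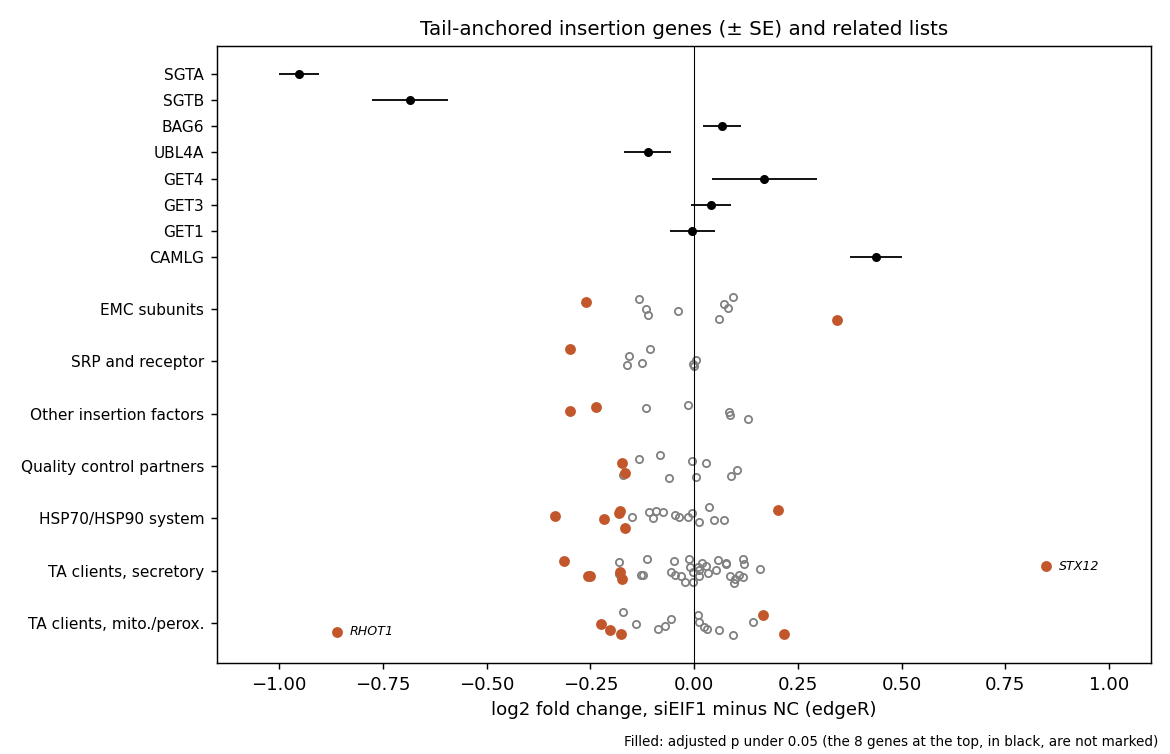
Log2 fold change of siEIF1 minus NC (horizontal axis, edgeR) of the 8 pathway genes (black, ± SE) and of each tested gene of the 7 related lists, with orange points for genes at an adjusted p under 0.05 and grey circles for the rest. RHOT1 at -0.86 and STX12 at 0.85 stood apart, and all other genes of the lists lay between -0.33 and 0.34.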

How the data were processed

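RNA-seq libraries of poly(A) RNA were prepared from 3 NC and 3 siEIF1 cultures, and each library was grouped by its sample title. The authors removed adaptors and bases of low quality (FASTX-Toolkit), aligned the reads to GRCh38 with HISAT2 (up to 4 mismatches), and deposited counts of uniquely mapped reads per gene without normalization. FPKM values were also deposited by the authors, rounded, and were used for levels and for an alternative test. The counting program, its strand setting and the annotation release are not given in the sources used here. The 6 columns of each table were matched to a library by name, and 0 columns were left unmatched.

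Counts were filtered with filterByExpr and fitted on 16749 genes with edgeR 4.0.16 under R 4.3.3, by the quasi-likelihood test with TMM scaling and p-values adjusted by Benjamini-Hochberg, with the standard error taken from the F statistic. Total counts were 26499929 to 31431479 per library, so that genes with few counts, such as GET4, have wider standard errors. The 8 genes and the related lists were chosen with earlier results of these data known. Named are the 8 genes, EIF1, GAPDH, up to 4 called genes per list and direction with the smallest p, list genes called with a fold above 1.5 or its inverse, the cell type markers, and the 5 genes most like SGTA. VAMP7 is listed on both sex chromosomes, and the entry with most counts was used. Gene models, 3' UTRs and the seed search used the canonical transcripts of GENCODE release 44 on GRCh38, and promoters came from RefSeq. Alternatives were RLE and upper-quartile scaling, DESeq2 1.42.0, other filters (none, or at least 10 counts in every library), limma 3.58.1 on log2(FPKM + 1) and log2(FPKM + 0.1), the replicate number as a block, and leaving out each library in turn. Splicing and protein levels were not analysed here.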

Additional observations from a re-analysis of the deposited data

How the results depend on the processing

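SGTA, SGTB and CAMLG kept their direction in all 14 alternatives, with log2 fold changes from -0.967 to -0.837, -0.804 to -0.544 and 0.37 to 0.496. Those of BAG6, UBL4A, GET4 and GET3 also kept their sign, while GET1, near 0, lay between -0.024 and 0.005. Limma on log2(FPKM + 1), whose pseudocount pulls fold changes of low genes toward 0, gave SGTA -0.837 and 20 genes past the fold limit, against 286. Limma on log2(FPKM + 0.1) gave 164 such genes and GET1 -0.024. Leaving out 1 library gave 2242 (without siEIF1 replicate 2) to 3472 genes called, against 3446, and 11 (without NC replicate 3) to 24 genes of the related lists, against 25. Over the 7 related lists and their genes named by rule, 348 of 420 values were the same and 52 lost their call. A further 20 counts moved by over 1.5 times and 0 reversed. The 8 pathway genes are not part of these 420 values, and GET1 kept its sign in 12 of the 14 alternatives. The calls lost most often were RNF126 (9 of 14 alternatives), MCL1 (7), BAG2, FIS1 and VAPB (6 each), STIP1 and TMEM208 (4 each), CYB5B and UBQLN1 (2 each), while RHOT1, STX12, EMC6, EMC8, SRPRA, TMCO1, HSPH1 and SEC22B lost none.

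With the replicate number as a replicate block, 4277 genes were called, 31 of them on the related lists. Deviations from the group means correlated at 0.149, 0.095 and 0.128 between libraries of the same number, and each library correlated best with its own number, which is a hint from the data and not from the design. With 3 libraries a group, no test on a single gene can pass 0.05 by permutation. GET4, with 185 to 285 counts, and GET1 overlap other genes on the same strand.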
